A study of Mus musculus with 12 samples.

Results

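The genes described here encode the proteins of the cytosolic ribosome. They were chosen by name, as rows of the expression table whose symbol is Rpl or Rps followed by a number and, in some, an a or x, together with Rpsa, Rplp0, Rplp1 and Rplp2. Pseudogenes and the Rps6k kinases were left out. This gave 76 genes of the 11494 listed, of which 46 belong to the large ribosomal subunit and 30 to the small subunit. The cells were mouse blood neutrophils from 2 groups of bone marrow transplant recipients. In the LOY group the genotype label is LOY, which stands for a lost Y chromosome in the transplanted marrow, and in the Control group it is Control. Both groups carry the treatment label Control and each has 6 libraries. For each library 10000 cells carrying Ly6G and RFP but not CD115 were sorted from blood after red cell lysis. The labels state neither strain nor age, nor how the Y chromosome was lost. They do not tie libraries to single mice either, and p-values therefore reflect library-to-library spread that may be technical.

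Ribosomes read messenger RNA and join amino acids into protein. Their small subunit decodes the message and their large subunit holds the catalytic centre, the exit tunnel and the stalk that recruits elongation factors. Each protein is needed in nearly equal number per ribosome, and in vertebrates most of the transcripts begin with a run of pyrimidines at the cap, the TOP motif, through which growth signals via mTOR control their translation. Blood neutrophils are short-lived cells that have left the cell cycle and carry fewer ribosomes than their marrow precursors.

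The start of the transcript was examined because it carries the TOP motif. Promoter sequences were found for 56 of the 76 genes (RefSeq, GRCm38.p6). A run of 8 or more C or T on the gene's own strand lay between 50 bases before and 50 bases after the annotated start in 48 of the 56 (85.7%), against 10614 of 27025 genes with a promoter in the table (39.3%). On the opposite strand of the same window 14 of the 56 held such a run (25%), against 11119 of the 27025 genes (41.1%). The excess of runs was thus on the gene's own strand. Windows of 30 bases, 10 before and 20 after the annotated start, are shown for the 2 highest of these genes by level, for 5 with long runs, for the lowly expressed Rpl12 and for a pair without a run, with the longest run of C or T in the window in capitals.
Rps27 (chr3:90213629-90213658, minus strand): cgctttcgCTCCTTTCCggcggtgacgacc
Rps9 (chr7:3704031-3704060, plus strand): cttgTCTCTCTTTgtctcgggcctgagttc
Rpl27a (chr7:109519185-109519214, plus strand): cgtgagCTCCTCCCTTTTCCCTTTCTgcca
Rpl35 (chr2:39005112-39005141, minus strand): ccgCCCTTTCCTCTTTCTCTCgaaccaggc
Rpl7a (chr2:26910797-26910826, plus strand): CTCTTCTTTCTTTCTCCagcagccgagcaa
Rpl15 (chr14:18270967-18270996, minus strand): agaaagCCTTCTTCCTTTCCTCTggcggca
Rpl13a (chr7:45128726-45128755, minus strand): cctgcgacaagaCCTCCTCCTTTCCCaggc
Rpl12 (chr2:32961702-32961731, plus strand): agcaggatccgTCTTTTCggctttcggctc
Rps3 (chr7:99483690-99483719, minus strand): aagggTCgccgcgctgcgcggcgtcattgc
Rps4x (chrX:102189372-102189401, minus strand): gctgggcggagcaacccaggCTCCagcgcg

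The run measured 20 bases in Rpl27a, 18 in Rpl35, 17 in Rpl15 and 14 in Rpl13a, against 9 in both Rps27 and Rps9. In Rpl7a it measured at least 17, since it begins at the edge of the window. Those 5 genes, picked for long runs, stood at 148 to 568 normalized reads per kilobase, below the median of 1224 given further on, whereas Rps27 and Rps9 were the highest. Other long runs lay on both sides of that median, such as Rps10 (run of 13) at 1838 and Rpl14 (run of 14) at 559.7. Whether run length goes with level was not tested. The windows shown were picked and do not tell how often a run lies this close to the annotated start. In Rpl37, Rpl37a and Rpl41, which held a run of 8 or more in the wider window, the longest run in the 30 bases was 3. The 8 genes without a run of 8 in the wider window were Rpl23, Rpl24, Rplp0, Rps13, Rps28, Rps3, Rps4x and Rpsa. The median level was 1183 normalized reads per kilobase in the 48 genes with a run and 1099.8 in the 8 without. CCGGAAG, the core recognised by ETS factors, lay on either strand of the 300 bases from 250 before to 50 after the start in 23 of the 56 (41.1%), against 2683 of the 27025 genes (9.93%). AAGATGGC, a YY1 core, lay there in 5 of the 56 (8.93%), against 862 genes (3.19%). A match describes these letters and does not show that a factor binds.

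Recovered reads per library ranged from 17097739 to 19616066 in LOY and from 13743581 to 18459792 in Control. Genes listed at 0 made up 6.6% to 11.6% of the table in the LOY libraries and 9.3% to 11.1% in Control 6, 17 and 18, but 20.5%, 21.7% and 17.3% in Control 1, 2 and 12, so the estimate of a single gene is also given without these 3 libraries where its sign changed or its size moved by over 1.5 times. The 4 listed Y-linked genes of 8 looked for summed to 0.162 to 86.3 CPM (reads per 1000000 listed reads) in LOY, where the library LOY 4 was the highest, against 155 to 254 in Control. The other LOY libraries were at 6.73 CPM or below, so LOY 4 stood apart from its group. All 10 neutrophil markers had a row and summed to 86947 to 117963 CPM in LOY and 84723 to 135549.8 in Control, led by S100a8 and S100a9. Of 10 erythroid markers 8 had a row and summed to 5906 to 38021 CPM in LOY, highest in LOY 15, and to 4283 to 8889.8 in Control. Markers of B cells (10 of 10 with a row) summed to 138 to 817 CPM in LOY and 306 to 579 in Control, and those of monocytes (7 of 10) to 1124 to 1608 in LOY and 959 to 1706 in Control. Markers of immature neutrophils (6 of 10) summed to 1090.4 to 1894 CPM in LOY and 839 to 2234 in Control, those of platelets (9 of 10) to 49.2 to 117 in LOY and 73.8 to 132 in Control, and those of T and NK cells (5 of 10) to 8.29 to 20.7 in LOY and 9.24 to 35.3 in Control. Their part in the results below was not tested. In bulk samples fewer cells of a type and less RNA per cell cannot be told apart.

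Reads assigned to the ribosomal protein genes made up under 1% of the listed reads in every library. Their share was 0.55%, 0.556%, 0.645%, 0.645%, 0.538% and 0.597% in the libraries LOY 4, 5, 9, 10, 15 and 19, against 0.565%, 0.671%, 0.603%, 0.578%, 0.648% and 0.612% in Control 1, 2, 6, 12, 17 and 18. The ranges overlapped over most of their length, and the means were 0.588% ± 0.0479 in LOY and 0.613% ± 0.0406 in Control (SD, n = 6 each), a difference of -0.0247 percentage points. The lowest share belonged to LOY 15, which also had the most erythroid reads, and the highest to Control 2, which had the fewest reads in all and the most genes at 0. Whether these measures bear on the shares was not tested. Summed over members, 94024 to 119425 raw reads in LOY and 92245 to 112042 in Control stood behind each share.

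Reads of the small subunit genes summed to 0.281% ± 0.0264 of listed reads in LOY and 0.295% ± 0.0185 in Control, and those of the large subunit to 0.307% ± 0.0241 in LOY and 0.318% ± 0.023 in Control (SD, n = 6 each). The log2 ratio of small to large sums was -0.13 ± 0.08 in LOY and -0.11 ± 0.04 in Control, and the difference of -0.02 was smaller than either SD. The library LOY 10 had a ratio of -0.00 and LOY 19 of -0.23, so the LOY libraries spread on both sides of the Control range of -0.18 to -0.07. The same libraries held the highest and the lowest share of Rps9 among ribosomal protein reads, 15.2% in LOY 10 and 10.8% in LOY 19. Without Rps9 the log2 ratio was -0.57 ± 0.05 in LOY and -0.52 ± 0.06 in Control.

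**Figure D1:**
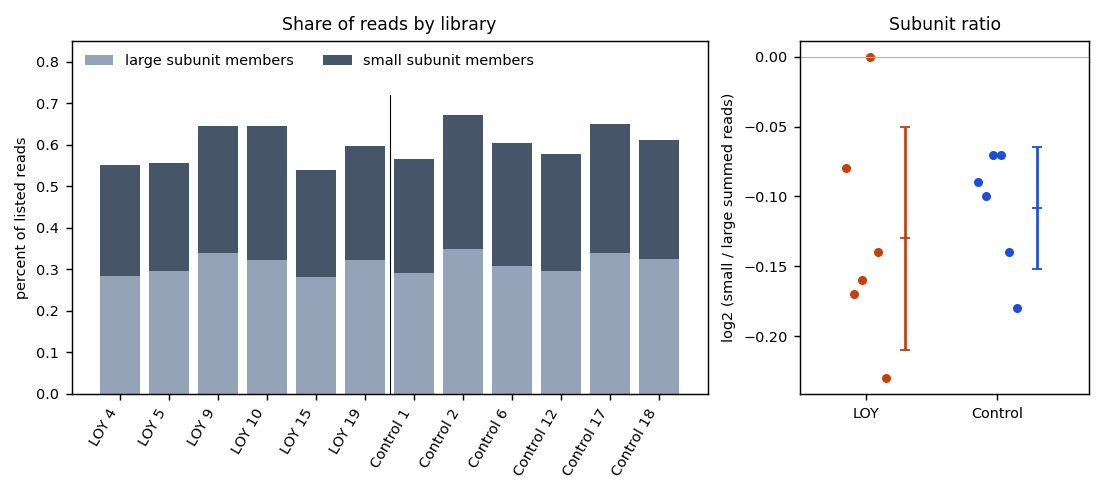
Left, percent of listed reads from large and small subunit genes (stacked bars) in each of the 6 LOY and 6 Control libraries. Right, log2 ratio of the small to the large subunit sum in each library (points) with the mean and SD of 6 libraries beside them; the shares of 0.538% to 0.645% in LOY lie within or just below those of 0.565% to 0.671% in Control.

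Although each protein is used in nearly equal number, reads per kilobase of annotated transcript differed by 279.8-fold between genes. Levels between genes are given as normalized reads per kilobase of the shortest principal transcript in GENCODE vM21, averaged over 12 libraries. They ran between 65 for Rps20 and 18202 for Rps27, with a median of 1224 and quartiles of 566 and 1807. The low end depends on the annotated length of Rps20, 3.71 kilobases against a median of 0.705 over the 76. Before division by length Rps20 had a mean of 241 normalized reads, above the 99.7 of Rpl12. The median listed protein-coding gene stood at 93.2 per kilobase over 9489 genes, and 74 of the 76 lay above it, the exceptions being Rpl12 and Rps20. The median was 1224 per kilobase in small subunit genes and 1236 in large subunit genes. With the union of annotated exons as the length, an alternative chosen after seeing the data, the span was 217-fold and the Spearman correlation between the orders over the 76 genes was 0.81.

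Rps27 and Rps9, both small subunit proteins, stood apart at the top. Rps27 carries a zinc finger and Rps9 sits beside the channel through which the message enters. Rps27 had 15942 to 22921 and Rps9 13552 to 22431 normalized reads per kilobase over the 12 libraries, and these ranges overlapped, but each library of both was above every library of Rpl41, a short basic peptide of the large subunit, at 7131 to 11029. This was the only break, since in the other 74 of 75 neighbouring pairs in the order the ranges of the libraries overlapped. Rpl37a and Rps29, which both bind zinc, followed with 5821 and 5652 per kilobase. The top pair was the same with the exon union as the length. Rps9 lies on chromosome 7 from 3703993 to 3706897 (GRCm38) and no exon of another annotated gene overlaps it.

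At the low end were Rpl3, which lies near the catalytic centre, at 222 normalized reads per kilobase, Rpl13a at 148, Rpl10a at 143, Rpl12 at 80.3 and Rps20 at 65. Rpl13a is known in human monocytes as a protein that leaves the ribosome to silence inflammatory transcripts. The principal transcript of Rps20 is annotated at 3.71 kilobases, the longest of the 76, and with the exon union Rps20 ranked 72 and Rpl12 last. Exons of Rpl12 overlap those of Lrsam1 on the opposite strand, and because strand is not marked by the library kit, reads of the shared bases cannot be assigned to either gene. In all, 23 of the 76 genes share exon bases with another annotated gene, 18 of them with a gene on the opposite strand.

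**Figure D2:**
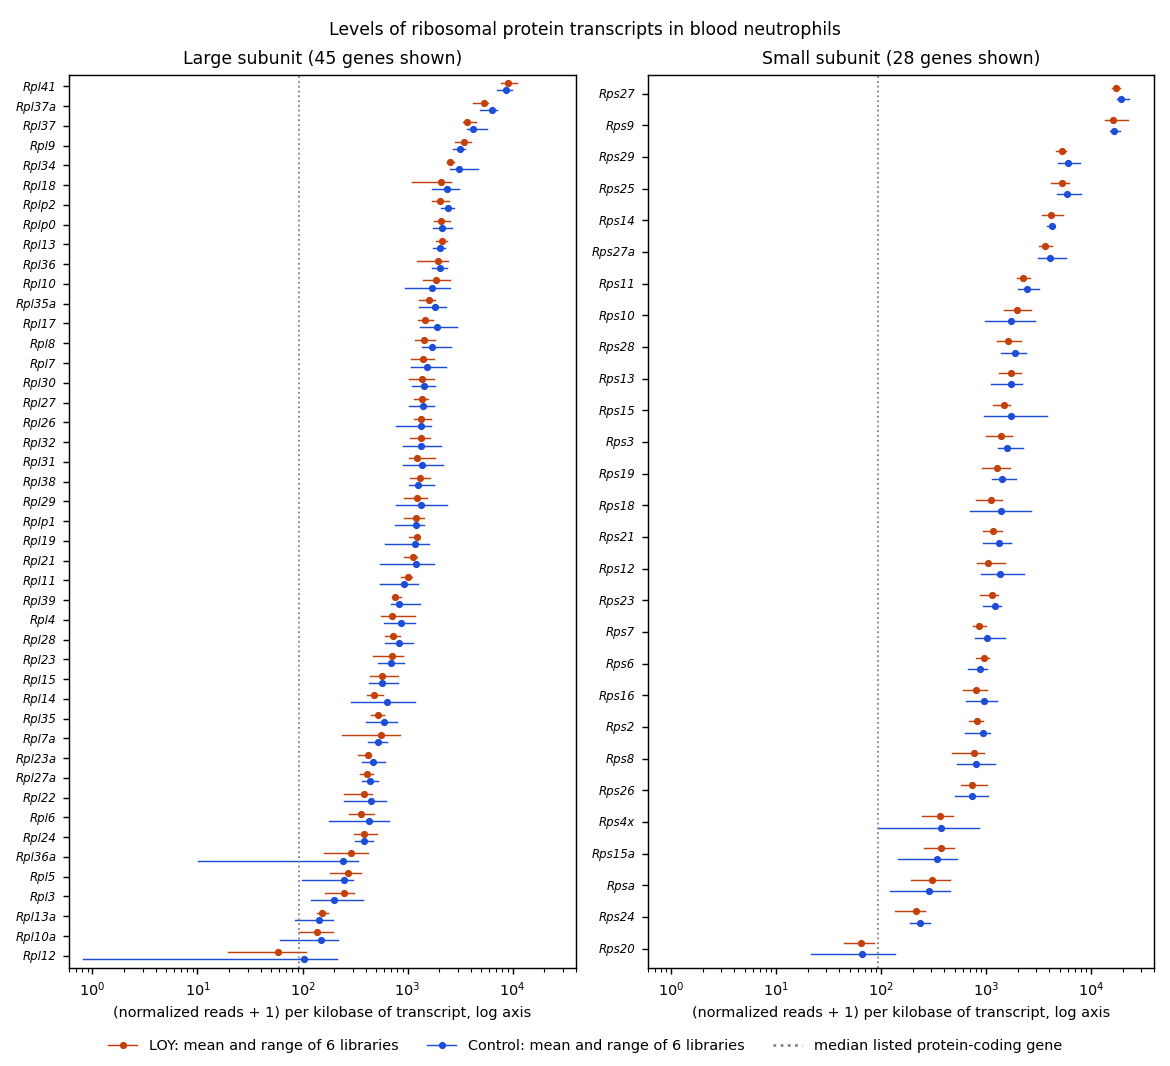
Mean and range over the 6 LOY and the 6 Control libraries of (normalized reads + 1) per kilobase of transcript, on a log axis, for large and small subunit genes ordered by level (3 of the 76 are not shown), with a dotted line at the median listed protein-coding gene (93.2). Rps27, Rps9 and Rpl41 lead, and for nearly all genes the LOY and Control ranges lie over one another.

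No ribosomal protein gene was called as different between LOY and Control neutrophils. All 76 passed the filter of 10 or more normalized reads in at least 6 libraries, and limma called 0 of them at an adjusted p under 0.05, against a background of 0.0205% (2 of 9742 tested genes). At an unadjusted p under 0.05, limma had 0 of 76 higher, against 4.4% of tested genes, and 0 of 76 lower, against 1.63%. edgeR on recovered reads called 0 (background 0%), and DESeq2 called 0 (background 0.484%). The authors' deposited table called none of them either, against 54 of 10960 genes with an adjusted p there (0.493%). An unadjusted p under 0.05 was reached by 0 of the 76 in edgeR, against 2.95% of tested genes, and by 0 in DESeq2, against 5.55%. It was reached by 0 in the authors' deposited table too, against 5.53% of its genes with a p. In 0 of 76 genes did the groups fail to overlap, against 0.287% of tested genes. The smallest unadjusted p was 0.0672 and the smallest adjusted p 0.81 (limma).

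The estimates were small and the intervals mostly narrow. The log2 fold change, LOY over Control on the log2(value + 1) scale, was highest for Rpl36a, at 0.74, and 65 of the 76 estimates lay within 0.25 of 0. The 95% interval of limma stayed within 2-fold in either direction for 68 of the 76 genes (89.5%), against 30.7% of all tested genes. Among genes with a mean of 500 or more normalized reads this held for 53 of 54 members (98.1%) and for 72.4% of 3582 tested genes. The 8 genes whose interval went past 2-fold included Rpl10a, Rpl12, Rpl3, Rpl36a, Rps15a, Rps20 and Rps4x, so that these libraries do not limit their difference to under 2-fold.

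The median estimate was -0.08 over the 76 genes, with 26 above and 50 below 0, whereas it was 0.14 over all 9742 tested genes, of which 39.1% were below 0. Among members with a mean of 500 or more 39 of 54 were below 0, with a median of -0.11, beside a median of 0.00 over the 3582 tested genes at that level. The small subunit median was -0.12 (9 above, 21 below) and that of the large subunit -0.04 (17 above, 29 below). Without Control 2 the number below 0 was 47, and without Control 1, 2 and 12 it was 49, where the median of all tested genes was -0.01. Because genes of 1 library share its preparation and scaling, these counts describe the libraries and carry no test.

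**Figure D3:**
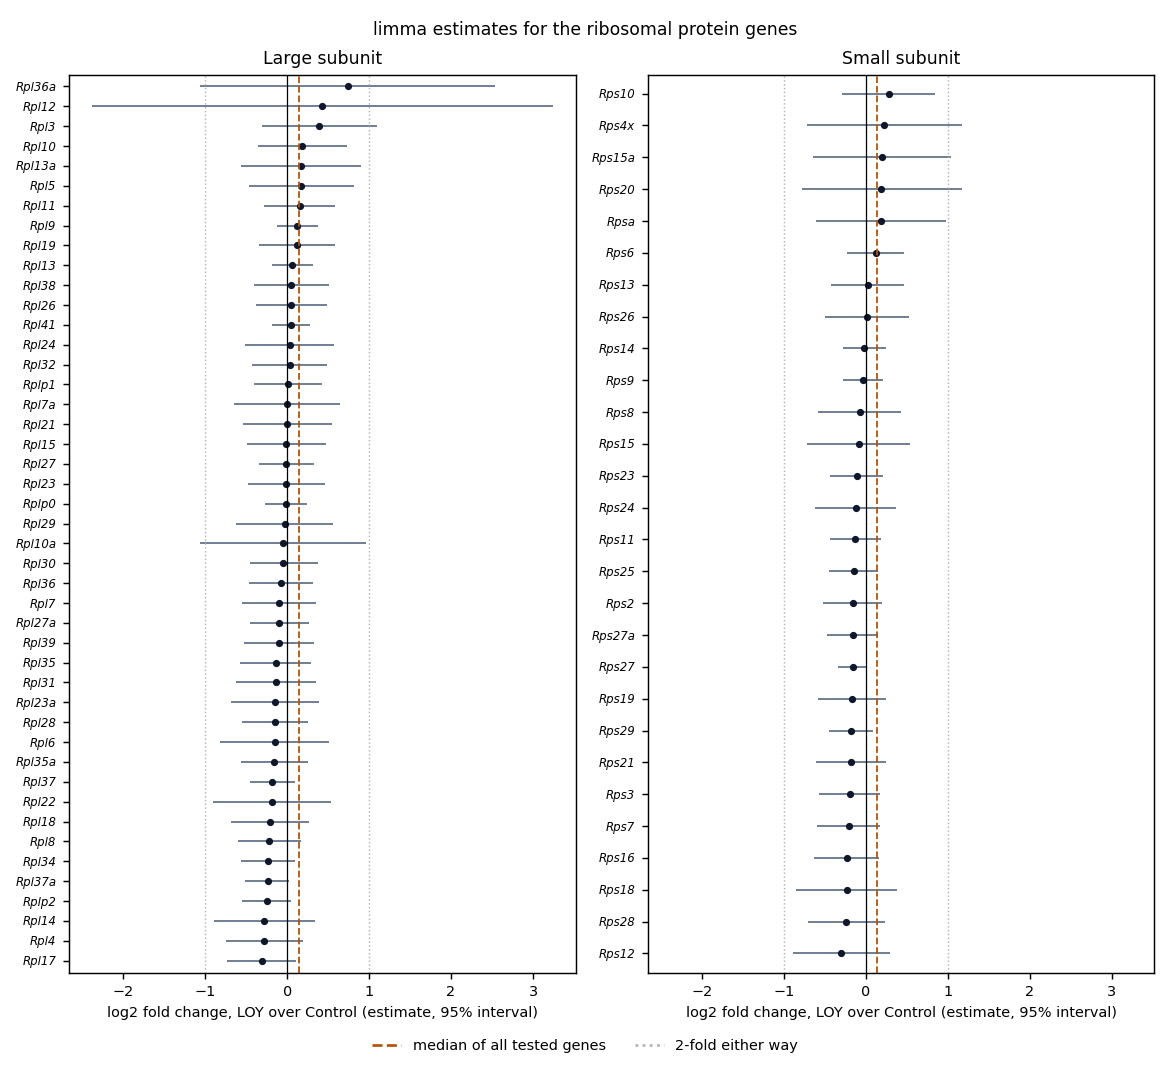
limma log2 fold change of LOY over Control (point) with its 95% interval (line) for each of 73 genes, large subunit left and small subunit right, with a dashed line at the median of all tested genes (0.14) and dotted lines at 2-fold. Every interval crosses 0 and those of Rpl12 and Rpl36a are the widest.

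In the small subunit the genes nearest to a difference had estimates below 0. Rps27 had 5499.9, 5822 and 6559 normalized reads as lowest, median and highest in LOY and 6111, 6364 and 7908 in Control. The groups overlapped, and the log2 fold change was -0.16 ± 0.08 (SE), with a limma adjusted p of 0.81. Rps29 was at -0.18 ± 0.13 and Rps16, which reaches the transfer RNA in the P site, at -0.23 ± 0.18. The estimate for Rps29 was -0.10 without Control 1, 2 and 12.

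Among the small subunit genes estimated higher, Rps10, at the message entry, had 742, 939 and 1335 reads in LOY and 483, 837 and 1439.7 in Control, a log2 fold change of 0.28 ± 0.26. All LOY values of Rps10 lay inside the Control range. Rps6, the protein phosphorylated by the S6 kinases, had 696, 857 and 929.9 reads in LOY and 592, 799 and 892 in Control, at 0.12 ± 0.16. Of the 7 genes listed for decoding and the message path, Rps2, Rps3, Rps9, Rps10, Rps15, Rps20 and Rps23, 2 were estimated higher and 5 lower with a median of -0.09, and limma called 0. Without Control 1, 2 and 12, 4 of the 7 were higher and 3 lower, with a median of 0.03.

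Rps9, the second gene by level per kilobase, was close between the groups. It had 10177, 11447 and 16845 normalized reads in LOY and 11445, 11864 and 14104 in Control, with a log2 fold change of -0.03 ± 0.11, and of 0.03 without Control 1, 2 and 12. The library LOY 10 held the highest value of all 12, while the other 5 LOY libraries, at 10177 to 11844, lay around the bottom of the Control range.

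In the large subunit, Rpl37a came nearest. It had 2362, 3016 and 3277 normalized reads in LOY and 2764, 3715 and 3997 in Control, with a log2 fold change of -0.24 ± 0.12 and a limma adjusted p of 0.81. Control 6 and 17, at 2764 and 2979, lay among the LOY libraries, and the estimate without Control 1, 2 and 12 was -0.09. Rpl17, of the exit tunnel, had 984, 1159 and 1342 reads in LOY and 1026, 1356 and 2315 in Control, at -0.31 ± 0.19. Without Control 1, 2 and 12 its estimate was 0.01. The exit tunnel list of Rpl4, Rpl17, Rpl19, Rpl23a, Rpl26, Rpl31, Rpl35 and Rpl39 had 2 genes estimated higher and 6 lower, a median of -0.14 and 0 called by limma; without those libraries the median was -0.08.

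Rpl34 and Rpl37 showed the same form, with 1 high Control library. Rpl34 had 1137, 1239 and 1327 reads in LOY and 1217, 1352 and 2275 in Control, at -0.23 ± 0.15, and its top value came from Control 2. Rpl4, of the exit tunnel, was at -0.28 ± 0.22 and held its highest LOY value, 1795, in LOY 9. Leaving out Control 1, 2 and 12 gave -0.11 for Rpl34 and -0.12 for Rpl4. Among those estimated higher, Rpl3 had 222, 337 and 415 reads in LOY and 161, 211 and 508 in Control. Its log2 fold change was 0.39 ± 0.32, and 0.01 without Control 1, 2 and 12. Rpl9 and Rpl19 were at 0.12 ± 0.11 and 0.12 ± 0.21, and Rpl19 was at -0.11 without those libraries.

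The P stalk binds elongation factors and is built on Rplp0 with pairs of Rplp1 and Rplp2, with Rpl12 at its base. Rplp2 had 721, 865 and 1041 reads in LOY and 878, 1014 and 1159 in Control, with a log2 fold change of -0.25 ± 0.14 and a limma adjusted p of 0.81. Its estimate stayed between -0.32 and -0.20 under all 22 alternative fits. Rplp0 had 2429.8, 2833 and 3434 reads in LOY and 2401, 2843 and 3569 in Control, at -0.02 ± 0.12, and Rplp1 was at 0.01 ± 0.19. Rplp0 was at -0.11 and Rplp1 at -0.17 without Control 1, 2 and 12. Per kilobase these 3 stood at 2120.4 for Rplp0, 2235 for Rplp2 and 1196 for Rplp1.

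Rpl12 was the least stable of the 76. It had 61.7, 37.7, 88.3, 84.2, 23.2 and 134 normalized reads in LOY 4, 5, 9, 10, 15 and 19, against 0, 8.97, 185, 91.6, 219 and 263 in Control 1, 2, 6, 12, 17 and 18. The 0 in Control 1 was the only one among 912 member values, and a count of 0 there allows up to 3.23 normalized reads (3 reads, counting error only). Control 1 and 2 lay below all LOY libraries and Control 6, 17 and 18 above all of them, with Control 12 among them. The limma estimate was 0.43 ± 1.29 while the group means, 71.5 in LOY and 128 in Control, had the opposite order. Without Control 1, 2 and 12 the estimate was -1.82, with an unadjusted limma p of 0.0109 and an adjusted limma p of 0.937.

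Rpl5 and Rpl11 bind the 5S ribosomal RNA, and when ribosome assembly is disturbed the complex inhibits Mdm2, the ligase that degrades p53. Rpl5 had 374, 548 and 729 reads in LOY and 201, 579 and 619 in Control, at 0.17 ± 0.30. Rpl11 had 721, 839 and 918 reads in LOY and 452, 763 and 1043 in Control, at 0.15 ± 0.20. For both genes the LOY libraries lay mostly within the Control range. The estimates without Control 1, 2 and 12 were 0.01 for Rpl5 and 0.09 for Rpl11. Of 19 genes whose human counterparts are mutated in Diamond-Blackfan anaemia 6 were estimated higher and 13 lower, with a median of -0.14 and 0 called by limma; the median was -0.08 without those libraries.

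The 76 genes lie on 19 chromosomes and 0 lie on the Y chromosome. In humans RPS4X has a Y-linked counterpart, which mouse lacks. Mouse Rps4x is on the X chromosome with Rpl10, Rpl36a and Rpl39. Rps4x had 238, 358 and 474 reads in LOY and 89.9, 322 and 838 in Control, at 0.22 ± 0.44. The Control libraries ran from Control 17 to Control 2 over a wider span than all LOY libraries. Its estimate was 0.73 without Control 1, 2 and 12.

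Rpl10, which joins the large subunit late in its assembly, had 1117, 1441 and 2041 reads in LOY and 763, 1516 and 2024 in Control, at 0.18 ± 0.25, and at -0.18 without Control 1, 2 and 12. Rpl36a had 75.9, 126 and 204 reads in LOY and 3.84, 143 and 161 in Control, at 0.74 ± 0.83. Its lowest value was the 3.84 reads of Control 2, and without Control 1, 2 and 12 its estimate was -0.17. Rpl39, of the exit tunnel, was at -0.10 ± 0.20, and at 0.06 without them. The 4 X-linked genes had 3 estimates above 0 and 1 below, and limma called 0.

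The spread between libraries was small for these genes. The coefficient of variation over the 12 libraries had a median of 21.6% in the 76 genes and 51.5% over all tested genes. At a mean of 500 or more the medians were 20.2% in the members and 28.9% in the 3582 tested genes, and below 500 they were 25.5% and 73.6%. The classes below 500 are not alike in level. Members there had means of 99.7 or more, whereas a tested gene needed only 10 normalized reads in 6 libraries. Rpl12 varied most (85%), and Rps4x (49.3%), Rps20 (47.9%) and Rps15 (45.9%) were also high, whereas Rps27 and Rpl13 varied by 10.4% each.

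**Figure D4:**
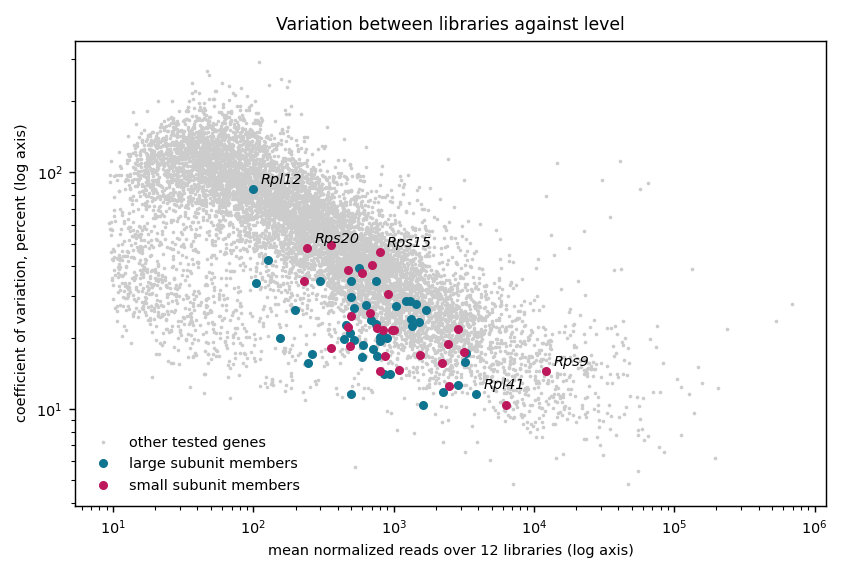
Coefficient of variation over the 12 libraries against the mean of normalized reads, both on log axes, for 73 large and small subunit genes and for the other tested genes in grey. Most members lie in the lower part of the cloud at their level, with medians of 21.6% for members and 51.5% for all tested genes, and Rpl12 lies at 85%.

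1 library held many of the highest values. Control 2 had the highest value of the 12 for 32 of the 76 genes and the lowest for 6, and its median deviation from each gene's mean was 0.29 on the log2 scale. No other library was highest for more than 11, a number reached by Control 1, which was also lowest for 13. LOY 15 was lowest for 14 genes and highest for 0. In Control 2 the median deviation of all tested genes was -0.09, below 0 where that of the members was above it.

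**Figure D5:**
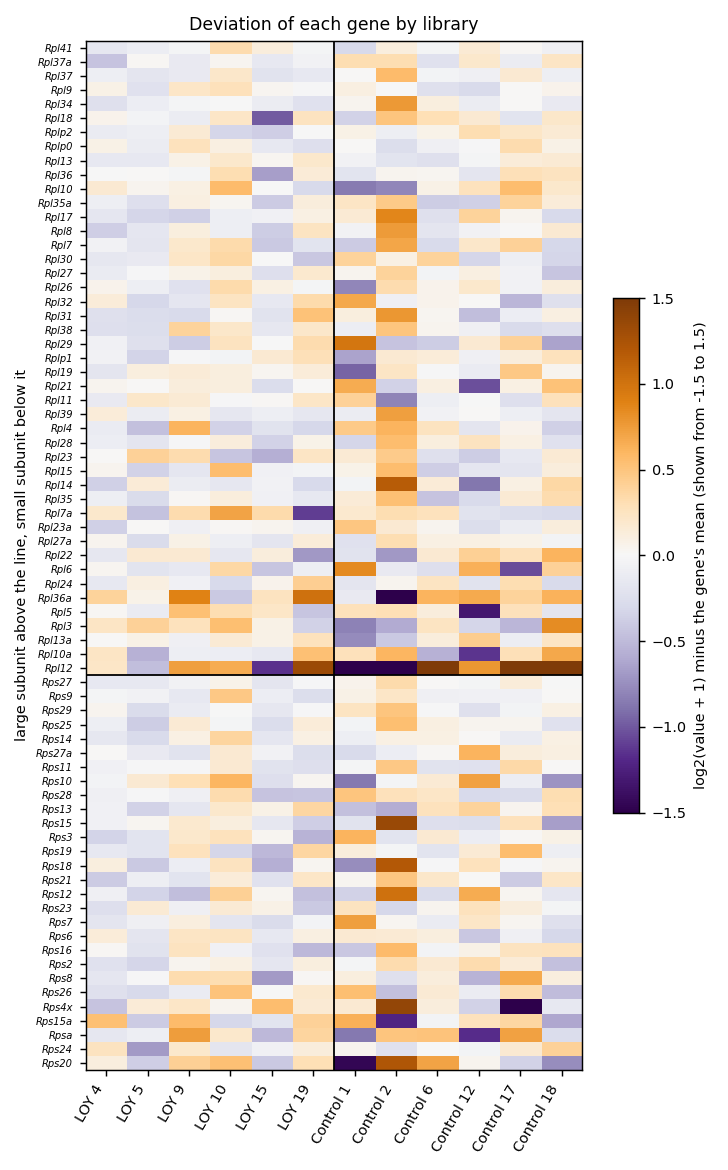
Deviation of log2(value + 1) from each gene's mean over 12 libraries (colour, capped at the ends of its scale), with LOY libraries left and Control libraries right, large subunit genes above the line and small subunit genes below it, each ordered by level, for 73 genes. The column of Control 2 is mostly above the mean, and the strongest colours are in lowly expressed genes such as Rpl12.

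Of the 80 cytosolic ribosomal proteins, 4 fall outside the naming rule, among them Rps3a1, Fau and Rack1. Rps27a, a member, is made as a fusion to ubiquitin, and Fau as a fusion of Rps30 to a ubiquitin-like protein. Fau had 4609.6, 5099 and 6257 reads in LOY and 4783, 5545 and 6755 in Control, at -0.10 ± 0.10, and its level of 11397 per kilobase lay between those of Rps9 and Rpl41. Rps27a was at -0.16 ± 0.14 and Rps3a1 at 0.06 ± 0.14. Rack1, a scaffold on the small subunit, had 279, 407 and 606 reads in LOY and 411, 529 and 1715 in Control, at -0.58 ± 0.34, with its top value in Control 2. Without Control 1, 2 and 12 the Rack1 estimate was -0.16 and that of Fau -0.06, and limma called 0 of the 4. With the 4 added the share of listed reads was 0.633% ± 0.0511 in LOY and 0.661% ± 0.0463 in Control (SD, n = 6 each).

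Near-identical copies limit what a row can say. How reads that match more than 1 gene were counted is not stated here. The shares and levels per kilobase above are therefore those of assigned reads and may be too low for genes with such copies. Rps27rt, a retrocopy on chromosome 9, is identical to Rps27 over all 252 coding bases, and Rpl37rt on chromosome 5 differs from Rpl37 at 1 of 291. The coding bases 160 to 249 of Rpl37 and the matching stretch of its copy are shown because no read that falls short of the last base, in capitals, can be assigned to either by sequence.
Rpl37: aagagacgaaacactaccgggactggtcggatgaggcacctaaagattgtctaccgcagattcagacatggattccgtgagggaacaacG
Rpl37rt: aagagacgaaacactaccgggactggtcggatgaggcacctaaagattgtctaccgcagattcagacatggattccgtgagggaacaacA

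The row of Rpl37rt held 283 ± 28.6 normalized reads in LOY and 326 ± 65.5 in Control, beside 3055 ± 348 in LOY and 3496 ± 679 in Control for Rpl37 (SD, n = 6 each). Rps27rt held 128 ± 12 in LOY and 156 ± 53 in Control. For both copies Control 2 was the highest library, as it was for their parents. The 55 pseudogene rows of these families summed to 1643 ± 145 reads in LOY and 1753 ± 229 in Control, which is 1.72% ± 0.0857 of the members' sum in LOY and 1.71% ± 0.112 in Control, and limma called 0 of the 51 tested.

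Related proteins with rows of their own were further apart in sequence. Rps27l, 79.1% identical to Rps27 over the aligned coding bases, had 408, 621 and 762 reads in LOY and 460.4, 659 and 1229.8 in Control. Rpl3l, known as the muscle form of Rpl3 and 77.1% identical to it, had 159, 192 and 294 reads in LOY and 160.3, 242 and 448 in Control. Its level of 166 per kilobase was below the 222 of Rpl3. Rpl22l1, 76.5% identical to Rpl22, had 32.8, 47 and 103 reads in LOY and 0, 33.3 and 57.8 in Control, with a log2 fold change of 1.75 ± 1.02. The Rpl22l1 estimate was 0.89 in edgeR, and 0.20 in limma without Control 1, 2 and 12. Its 0 was in Control 2. Rps27l was at -0.21 ± 0.24, and at -0.08 without them. Of the 5 tested relatives, Rpl22l1, Rps27l, Rpl3l, Rpl7l1 and Rpl36al, 2 were estimated higher and 3 lower, and limma called 0.

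The members also shared features of the gene. Their principal transcripts had a median of 0.705 kilobases, against 2.73 in the 8136 other tested protein-coding genes. At least 1 annotated small nucleolar RNA lay inside 29 of the 76 (38.2%), against 132 of the 8136 (1.62%). These RNAs guide the modification of ribosomal RNA and are made from introns of their host genes. Rpl4 held 5, the most of any member. On chromosome 7 lay 14 members (18.4%), against 7.68% of the other tested protein-coding genes.

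Other genes of ribosome production were compared in the same limma fit, in which 0 genes of these lists were called. Besides the ribosomal proteins, 19 of 20 listed genes with a TOP motif or of snoRNA hosts were tested, of which 9 were estimated higher and 10 lower with a median of -0.03; without Control 1, 2 and 12 the median was 0.02. Snhg5, a host of small nucleolar RNAs on chromosome 9, had 18.3, 41.8, 33.7, 51.8, 187 and 224 reads in LOY 4, 5, 9, 10, 15 and 19, against 0, 0, 12.1, 0, 2.81 and 0 in Control 1, 2, 6, 12, 17 and 18. The groups did not overlap, which held for 0.287% of tested genes. Its log2 fold change was 5.04 ± 0.91, with adjusted p = 0.189 in limma, 1 in edgeR and 0.0188 in DESeq2. Without Control 1, 2 and 12 it was 4.10, with adjusted p = 0.937 in limma. Over all 23 fits its adjusted p ran between 0.0188 (DESeq2) and 1. Btf3, part of the complex that guides nascent chains, was at -0.20 ± 0.13, and Cct6a, of a chaperonin, had 131, 303 and 479 reads in LOY and 4.3, 151 and 1109 in Control.

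Ribosome assembly factors were read at lower levels and with wider errors. Of 46 listed, 36 were tested, with 22 estimated higher and 14 lower, a median log2 fold change of 0.31 and a median SE of 1.03. With Control 1, 2 and 12 left out, 16 of 34 tested were higher and 18 lower, with a median of -0.06. Dkc1, of the pseudouridine synthase complex, was at 2.21 ± 1.16, and Wdr43 and Bysl, of small subunit assembly, were at 2.86 ± 1.56 and 1.66 ± 1.01. In edgeR these estimates were smaller, at 1.35 for Dkc1, 0.84 for Wdr43 and 0.86 for Bysl. Without the 3 libraries, limma had Dkc1 at 0.74, Bysl at 1.31 and Wdr43, which had 0 reads in all 3 of them, at -0.37.

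The RNA polymerase I list had 10 of 12 tested genes estimated higher with a median of 0.55, but without Control 1, 2 and 12 it had 4 higher and 8 lower, with a median of -0.16. Cd3eap was at 2.64 ± 1.53 in limma, at 0.90 in edgeR and at -0.66 in limma without the 3 libraries. Polr1c was at 2.18 ± 1.36 in limma and 0.53 in edgeR, and stayed above 0 without them, at 2.39. Taf1a was at 2.56 in limma (95% interval -0.92 to 6.03) and 1.38 without them, but at -0.13 in edgeR, and its means of 109 normalized reads in LOY and 121 in Control also ran the other way.

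Among 18 tested genes that govern ribosome synthesis, 10 were estimated higher and 8 lower with a median of 0.14; without Control 1, 2 and 12, 8 were higher and 10 lower, with a median of -0.07. Mtor, the kinase that controls TOP transcripts, had 107, 168 and 255 reads in LOY and 181, 307 and 489 in Control, and 4 of the 6 LOY libraries lay below all Control libraries. Its log2 fold change was -0.85 ± 0.34, with a limma p of 0.0247 and a limma adjusted p of 0.794. It was -0.86 in edgeR, -0.88 in DESeq2 and -0.83 without Control 1, 2 and 12. Cnbp, which binds TOP transcripts, was at 0.28 ± 0.13 and Max, the partner of Myc, at -0.41 ± 0.22, and at -0.07 without those libraries. Of the 8 tested Rps6 kinases, which the naming rule leaves out, Rps6kb1 was at 0.42 ± 0.29, Rps6ka3 at -0.44 ± 0.53 and Rps6kc1 at 1.51 ± 1.94. Leaving out the same libraries gave 0.04 for Rps6kb1 and 0.17 for Rps6ka3.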

How the data were processed

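RNA of sorted neutrophils was made into cDNA with SMART-Seq v4 and into libraries with Nextera XT, per the labels' protocols. GRCm38 (mm10) is the build, and STAR 2.5.2b, featureCounts (Subread 1.5.2), Trimmomatic 0.36 and bcl2fastq 2.17 are among the tools, in the submitters' processing notes. The authors deposited a normalized signal per gene and library, with log2 fold changes and p-values of their own, as the file headers name them. No source used here names the tool that made those. In each library 100.0% of values were whole multiples of 1 step within 0.02 reads, so the signal is taken as reads over a size factor. Genes with a mean under 8.63 are not listed.

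limma 3.58.1 (R 4.3.3; trend, robust) was fitted to log2(value + 1) over 9742 genes with 10 or more in at least 6 libraries, with Benjamini-Hochberg adjustment at 0.05 over all of them and no covariate. The added 1 understates changes of low genes, but the log scale gave larger estimates than edgeR for several genes that are near 0 in some libraries. The median limma estimate was 0.38 over tested genes with a mean under 500. Over all tested genes the median was 0.14 in limma and -0.01 in edgeR. Of 11494 identifiers 11472 were found in GENCODE vM21. edgeR 4.0.16 and DESeq2 1.42.0 on recovered reads, other scalings, filters and pseudocounts, the share of genes at 0 as covariate and libraries left out were alternatives; scripts were tested on simulated counts. Members and gene lists were chosen with earlier results of these data known. Genes named are the 10 members per direction with the smallest limma p, the 5 highest and lowest per kilobase, those on chromosome X, of the stalk, the 5S complex and ubiquitin fusions, and the 3 with the smallest p of each other list, and the 2 most abundant markers of a cell type; any other gene was named after its values were seen. Values of 4 genes that this choice or the 80 ribosomal proteins include are not reported singly here, and 3 of them are left out of the plots; counts and sums include them.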

Additional observations from a re-analysis of the deposited data

Results flagged for a closer look

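Among 66 groups of 6 libraries (31 named genes, the share of listed reads and the subunit ratio, in each group), 8 held a library whose gap to its nearest neighbour took up more of the group's range than Dixon's 95% critical value for 6 allows. Chance flags about 1 in 20 groups when they are unrelated and unselected. These groups share the same libraries, and many of the genes were named for a small limma p, so that rate is only a rough guide.

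4 of the 8 were high values of Control 2, the library with the fewest reads and the most genes at 0. Rpl34 had 2275 normalized reads there, against 1217 to 1435 in the other Control libraries. Rpl37 had 4812 against 3051 to 3642, Rpl39 had 799 against 423 to 484, and Rps4x had 838 against 89.9 to 362. LOY 10 was high for Rps9, with 16845 against 10177 to 11844 in the other LOY libraries, and for Rpl37, with 3743 against 2802 to 3054. In LOY 9 Rpl4 had 1795 reads, against 855 to 1077. Rpl19 was low in LOY 4, with 772 against 899 to 974.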

How the results depend on the processing

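Under the 22 alternative fits the number of ribosomal protein genes called stayed at 0, and the lowest adjusted p of any member was 0.581 (limma without Control 6). Few genes of any kind were called in these fits: 0 in edgeR, 54 in DESeq2 and at most 15 in limma, without Control 6. A count of 0 among the members therefore says little about them. The median log2 fold change lay between -0.12 and -0.02 over 23 alternatives, and between -0.12 and -0.04 with 1 library left out. The median of all tested genes lay between -0.04 and 0.16, and quantile normalization moved it to 0.00 and that of the members to -0.04. The difference in share of listed reads lay between -0.044 and -0.013 percentage points over 16 alternatives, and the log2 subunit ratio differed by -0.047 to -0.002 over 15. Of 682 estimates for the 31 named genes 56 had the other sign, in 16 genes, with 0 called; the widest span was that of Rpl12, -2.11 to 0.93. At an unadjusted p under 0.05, limma had Rpl12 lower without Control 1, 2 and 12, Rpl37a without Control 6 or 17, Rps27 without LOY 10, and 3 genes, with Rpl4 and Rplp2 among them, without LOY 9. These are at most 3 of the 76 members in a fit, and the main fit had 1.63% of all tested genes lower at that p. The share of all genes in the reduced fits is not given here, so these members are not set apart. No paired analysis was possible because the groups share no replicate number. Low reads limit Rpl12, Rpl36a, Rpl10a and the assembly factors most.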
